A study of Mus musculus with 6 samples.

Results

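The genes described here are Atf4 and established targets of its protein in the integrated stress response, followed in the mouse melanoma cell line D4M-3A with and without a knockout of Nfkbiz. They were chosen by name from a set of 10 (Atf4, Atf5, Ddit3, Trib3, Chac1, Sesn2, Asns, Psat1, Phgdh and Slc7a11) as rows of the deposited gene tables. Of the 43043 genes listed there, 9 carry one of these names. Ddit3 is listed as the numbered entries Ddit3_1 and Ddit3_2, which are given beside the 9 and not counted among them. Bulk RNA was sequenced from 3 Ctrl samples, which carry an empty CRISPR-Cas9 construct brought in by lentivirus, and from 3 Nfkbiz KO samples, which carry a construct against Nfkbiz. Both groups share the cell line, the serum-containing medium, the transduction and the puromycin selection. Whether the knockout is a clone or a pool is not given in the sources used here. Replicates are independent experiments according to the study's legends. The p-values below measure the spread among these samples, and differences between lines made separately were not tested.

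In the integrated stress response, kinases that sense amino acid shortage, misfolded protein in the endoplasmic reticulum, viral RNA or heme deficiency phosphorylate the translation factor eIF2α. General protein synthesis then falls, whereas the mRNA of the transcription factor ATF4 is translated more efficiently because of the short reading frames ahead of its coding sequence. ATF4 protein binds C/EBP-ATF response elements together with C/EBP partners and raises genes for amino acid uptake and synthesis, tRNA charging and stress signaling, and CHOP (encoded by Ddit3), ATF5, TRIB3 and CHAC1 are among its well-known outputs.

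The promoter sequences of these genes were searched for the element that ATF4 reads. In RefSeq windows from 250 bases before to 50 bases after each transcript start, the core of the C/EBP-ATF response element, written TGATGNAA and searched on both strands, was found 5 times, in 4 of 10 genes. Across all mouse promoter windows of this length 3.97% hold it, and 2.27% of the windows of the genes tested here. These percentages count windows and not genes. Asns, Chac1, Slc7a11 and Trib3 carried it, and their stretches are shown. All 4 were higher in Nfkbiz KO (below), but so were Atf5, Sesn2, Psat1 and Ddit3_1, without a match in their windows. A link between the element and the change was not tested. Capitals mark the match, each stretch runs 5′ to 3′ on the gene's own strand, and coordinates are on GRCm39.
Asns, chr6:7693214-7693243, minus strand: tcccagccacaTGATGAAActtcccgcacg
Chac1, chr2:119181519-119181548, plus strand: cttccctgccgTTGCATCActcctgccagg
Slc7a11, chr3:50398076-50398154, minus strand: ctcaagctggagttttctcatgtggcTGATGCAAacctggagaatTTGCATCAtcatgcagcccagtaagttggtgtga
Trib3, chr2:152185948-152185977, minus strand: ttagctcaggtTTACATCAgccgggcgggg
The Slc7a11 stretch holds a match on each strand, starting 66 and 47 bases before the transcript start, and overlaps no annotated exon of Slc7a11. The matches begin 23 bases before the start in Asns and 193 bases before it in Chac1, where 23 of 40 and 1 of 2 GENCODE M39 transcripts, respectively, already place an exon over the stretch. In Trib3 the match begins at base 15 of the RefSeq transcript, and 5 of 12 annotated transcripts have an exon there.

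**Figure D1:**
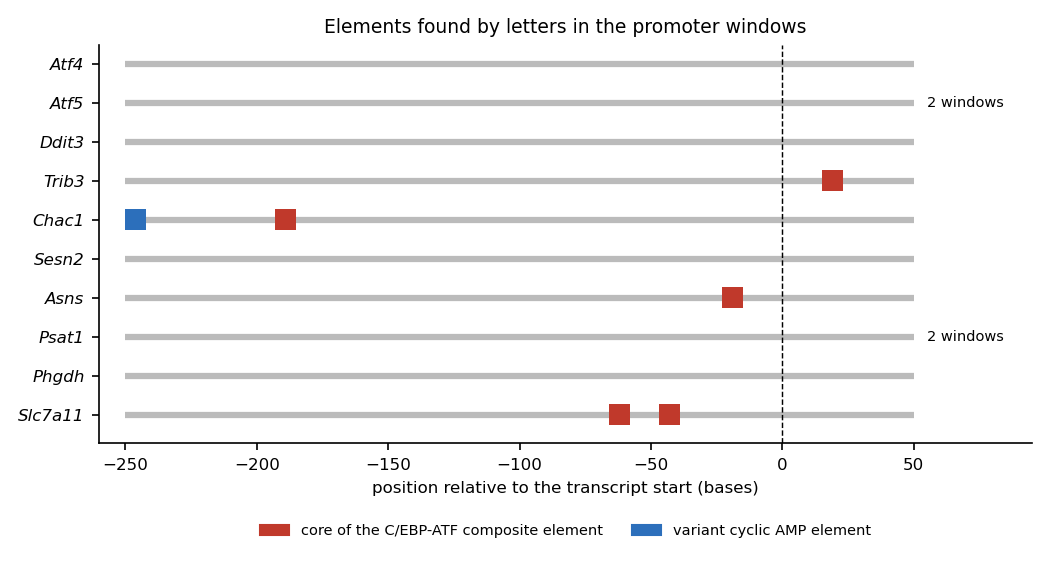
Positions of the motif matches in the promoter windows of the 10 genes, in bases relative to the RefSeq transcript start (dashed line). Red squares are the C/EBP-ATF core, found in Asns, Chac1, Slc7a11 and Trib3, and the blue square is the variant cyclic AMP element of Chac1.

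A variant of the cyclic AMP element, TGACGCAA, lay 250 bases before the start of Chac1 and was found in 0.49% of all windows and 0.835% of those of tested genes. It is shown because it is the only other searched element with a match in that window.
Chac1, chr2:119181473-119181502, plus strand: TGACGCAAtctgactcgcccttgctgcatg
The palindromic form TGACGTCA, found in 1.79% of all windows and 2.9% of those of tested genes, was in none of the 10. No match was found in the windows of Atf4, Atf5, Ddit3, Sesn2, Psat1 and Phgdh, which says only that these letters are not in those windows. Matches are letters in a sequence, and binding was not measured here.

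The targeted gene was checked before the stress genes. The level of Nfkbiz mRNA, the transcript for IκBζ, was 69.1, 75.2 and 63.4 TPM in Ctrl replicates 1 to 3 and 34.8, 34.7 and 35.1 TPM in Nfkbiz KO replicates 1 to 3, so the groups did not overlap. Below, values are given in this order of replicates. Between 32219900 and 44927203 reads were counted on genes per library, 14419 genes were tested, and the first principal component, which separated the groups, held 61.8% of the variance. TPM, a level corrected for transcript length and library size from exon reads, is used to describe levels, whereas differences were tested on total gene reads with edgeR's quasi-likelihood test and Benjamini-Hochberg adjustment over all genes tested. Ctrl libraries differed more among themselves than Nfkbiz KO libraries, with 25.8 to 65.9 against 3.41 to 5.89 for the chi-square statistic of a library pair divided by its degrees of freedom. Of the 11 melanocyte and melanoma markers examined, 8 were at or below 1 TPM in every library and Sox10, Tyr and Ednrb had 0 reads, while Axl and Sox9 were expressed. Their summed level, 717.7 to 853.8 TPM in Ctrl and 926.2 to 941.8 TPM in Nfkbiz KO, was mostly that of Axl, which did not pass (adjusted p = 0.0894, edgeR). Sox9 rose by 0.27 (log2, adjusted p = 0.0362, edgeR), and Mitf, at 0.690 to 1.21 TPM, did not pass. Fibroblast markers summed to 428.9 to 495.1 TPM in Ctrl and 340.5 to 375.1 TPM in Nfkbiz KO, with Col1a1 and Dcn lower and Pdgfra and Pdgfrb not passing. All 7 immune markers stayed at or below 1 TPM, and endothelial markers summed to 0.55 to 0.827 TPM in Ctrl and 1.32 to 1.85 TPM in Nfkbiz KO. Most of that sum was Cdh5, on 18 to 83 reads per library, which rose by 1.34 (log2, adjusted p = 0.00228, edgeR). Pecam1 had −0.16 (log2) and did not pass, and Kdr and Tek were too low to test. The part of these differences in the results below was not tested.

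Most of the chosen targets of ATF4 were higher in Nfkbiz KO, by modest amounts, while Atf4 mRNA itself did not pass the test. Of the 9 genes, 7 passed an adjusted p of 0.05 as higher in Nfkbiz KO (Slc7a11, Chac1, Atf5, Asns, Trib3, Psat1 and Sesn2), 0 as lower, and Atf4 and Phgdh did not pass. Over all genes tested, 18.2% passed as higher and 18.4% as lower. The median log2 fold change of the 9 genes was 0.27, with a range from 0.02 to 0.62, against −0.02 over all genes tested. None reached the study's thresholds, meaning throughout those of its methods, which 1.79% of the genes tested reached. They ask for the same adjusted p together with more than 2-fold change and a difference over 4 (read here as TPM). For its comparison of cytokine and chemokine genes, the study also used a lower fold change and a looser p-value, not applied here. Slc7a11 had the largest change of the 9, at 1.54-fold. The same 7 genes had higher CPM (gene reads scaled to library size) in every Nfkbiz KO library than in any Ctrl library, as did 23.9% of all genes tested, with 24.5% lower throughout. For each of them the two-sided exact permutation test gave p = 0.1, the smallest that 3 samples against 3 allow. On the TPM scale all 9 genes, and Ddit3_1, were above Ctrl in every Nfkbiz KO library, as were 32.9% of all genes tested, with 14.9% lower throughout. In bulk RNA, a change in the share of cells that express a gene and a change in RNA per cell cannot be told apart.

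**Figure D2:**
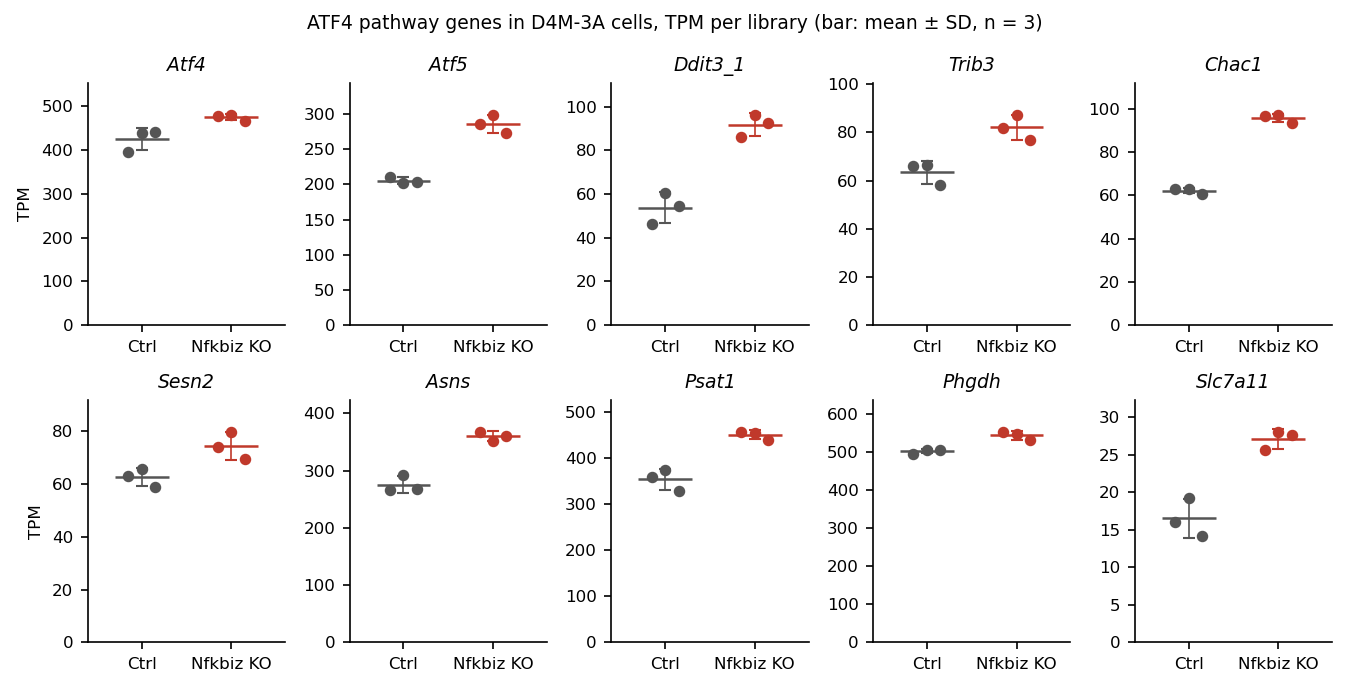
TPM of each gene in the 3 Ctrl and 3 Nfkbiz KO libraries (points), with the mean ± SD (bars). In each panel all 3 Nfkbiz KO points lie above the Ctrl points, as for 32.9% of all genes tested, with narrow gaps for Atf4, Phgdh and Sesn2.

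Atf4, the central transcription factor of the response (chromosome 15, 80139372 to 80141745, plus strand), was among the most abundant of these mRNAs. It had 396, 439 and 442 TPM in Ctrl and 477, 481 and 467 TPM in Nfkbiz KO. All Nfkbiz KO values lay above the Ctrl values on this scale, with Ctrl replicate 1 the lowest library. On the scale of gene reads the groups overlapped, since Ctrl replicate 3, at 326 CPM, exceeded the 311, 316 and 309 CPM of Nfkbiz KO. The log2 fold change was 0.06 (SE 0.062, 95% interval −0.07 to 0.20, adjusted p = 0.486, edgeR). Without Ctrl replicate 3 it was 0.13 and passed (adjusted p = 0.024, edgeR). These values describe mRNA and not ATF4 protein, whose synthesis is the regulated step of the pathway.

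Atf5, a related bZIP factor whose mRNA is also under translational control (chromosome 7, 44461680 to 44466082, minus strand), had 211, 202 and 203 TPM in Ctrl. In Nfkbiz KO it had 285, 299 and 274 TPM, with every Nfkbiz KO library above every Ctrl library. Its log2 fold change was 0.38 (SE 0.058, 95% interval 0.26 to 0.51, adjusted p = 0.000249, edgeR). The gene overlaps Il4i1 and Nup62 on the opposite strand by 729 bases, and reads were counted without regard to strand. Overlaps with noncoding genes are annotated for Asns (1700012J15Rik, 35486 bases, opposite strand), Trib3 (Gm14164, 4441 bases, opposite strand) and Sesn2 (Gm12981, 6089 bases, same strand). Slc7a11 also has them (the longest Gm64697, 44573 bases, same strand), and Psat1 overlaps the pseudogene Gm3329 (556 bases, opposite strand). As the gene reads also include reads outside exons, their shares in the counts of these genes cannot be told apart.

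Ddit3 encodes CHOP, the factor linked to cell death under prolonged stress, and was read from its numbered entries. Ddit3_1 had 46.4, 60.7 and 54.5 TPM in Ctrl and 86.1, 96.4 and 92.8 TPM in Nfkbiz KO. The lowest Nfkbiz KO library stood well above the highest Ctrl library, and Ddit3_2 had 0 reads in all 6 libraries. Ddit3_1 rose by a log2 fold change of 0.60 (SE 0.075, 95% interval 0.43 to 0.76, adjusted p = 5.41e-05, edgeR), close to the top of the range of the genes named in full. In GENCODE M39 Ddit3 has a pair of overlapping gene entries on chromosome 10, the longer from 127124268 to 127132163 on the plus strand, which shares 3820 bases with Mars1 on the opposite strand. Because strand was not used, reads from Ddit3 and Mars1 cannot be told apart where they overlap. The longer entry also overlaps Mbd6 (669 bases, opposite strand) and noncoding genes, where the same holds. Mars1, the methionyl-tRNA synthetase gene, had a log2 fold change of 0.04 (adjusted p = 0.582, edgeR), and 91.8% of the Ddit3_1 reads mapped uniquely.

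Among the stress effectors, Chac1, which degrades glutathione, had one of the larger changes (chromosome 2, 119180757 to 119184866, plus strand). It had 62.8, 63.1 and 60.8 TPM in Ctrl and 96.4, 97.3 and 93.6 TPM in Nfkbiz KO. The libraries of each group lay close together and the groups did not overlap. Its log2 fold change was 0.51 (SE 0.0552, 95% interval 0.39 to 0.63, adjusted p = 1.52e-05, edgeR), a 42.4% increase. Chac1 also stands in a gene list that the study drew from its own sequencing of knockdown and knockout cells, so its change here is not independent evidence of that list.

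Trib3, a pseudokinase that binds AKT and restrains ATF4 itself (chromosome 2, 152179337 to 152191958, minus strand), had 66.1, 66.3 and 58.0 TPM in Ctrl. In Nfkbiz KO it reached 81.7, 87.4 and 77.0 TPM, again with no overlap. The log2 fold change was 0.27 (SE 0.061, 95% interval 0.14 to 0.41, adjusted p = 0.00395, edgeR). Sesn2, a leucine sensor that inhibits mTORC1 (chromosome 4, 132219335 to 132237815, minus strand), had 62.8, 65.6 and 58.8 TPM in Ctrl and 74.1, 79.6 and 69.3 TPM in Nfkbiz KO. Its Nfkbiz KO libraries were above the Ctrl libraries by a small margin, with replicate 2 the highest in both groups. It passed narrowly, with a log2 fold change of 0.16 (SE 0.0585, 95% interval 0.04 to 0.29, adjusted p = 0.0433, edgeR). That call was lost when Ctrl replicate 1, Ctrl replicate 2, Nfkbiz KO replicate 1 or Nfkbiz KO replicate 2 was left out (log2 fold change 0.12 to 0.17, adjusted p 0.053 to 0.22, edgeR) and with the replicate number as a block (adjusted p = 0.062, edgeR).

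Of the 4 genes for amino acid supply, 3 were higher and Phgdh did not pass. Slc7a11, the cystine importer of system xc- that feeds glutathione synthesis (chromosome 3, 49846975 to 50398070, minus strand), was the least abundant of the 9 genes and had the highest fold change of them. It had 16.0, 19.2 and 14.2 TPM in Ctrl and 25.6, 28.0 and 27.6 TPM in Nfkbiz KO. No Ctrl library came near the Nfkbiz KO range, although the Ctrl libraries varied by 10.2% (coefficient of variation of CPM) against 5.21% in Nfkbiz KO. The log2 fold change was 0.62 (SE 0.0731, 95% interval 0.46 to 0.78, adjusted p = 3.02e-05, edgeR).

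Asns, which makes asparagine from aspartate (chromosome 6, 7671667 to 7728461, minus strand), had 266, 292 and 267 TPM in Ctrl and 368, 351 and 361 TPM in Nfkbiz KO. The groups did not overlap, and Asns rose by a log2 fold change of 0.30 (SE 0.0511, 95% interval 0.18 to 0.41, adjusted p = 0.000682, edgeR). Psat1 encodes phosphoserine aminotransferase, the middle step of serine synthesis (chromosome 19, 15882039 to 15924701, minus strand). Its level was 359, 374 and 328 TPM in Ctrl and 457, 456 and 439 TPM in Nfkbiz KO. Ctrl replicate 3 was the lowest and the groups stayed apart, with a log2 fold change of 0.26 (SE 0.0528, 95% interval 0.15 to 0.38, adjusted p = 0.00209, edgeR).

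Phgdh, which opens the serine pathway ahead of Psat1 (chromosome 3, 98220484 to 98255047, minus strand), had the highest level of the 9 genes and did not follow Psat1. It had 495, 505 and 505 TPM in Ctrl and 553, 546 and 531 TPM in Nfkbiz KO. The TPM values separated, but on the scale of gene reads Ctrl replicate 3, at 399 CPM, was above the 387, 387 and 378 CPM of Nfkbiz KO. The log2 fold change was 0.02 (SE 0.0546, 95% interval −0.10 to 0.14, adjusted p = 0.825, edgeR). With limma on log2(TPM + 1) it was 0.11 and passed (adjusted p = 0.029). On that scale the median of all genes was 0.06 and 69.4% of all calls were higher in Nfkbiz KO, against 49.8% with edgeR on gene reads. The test and the unit both differ between these fits.

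**Figure D3:**
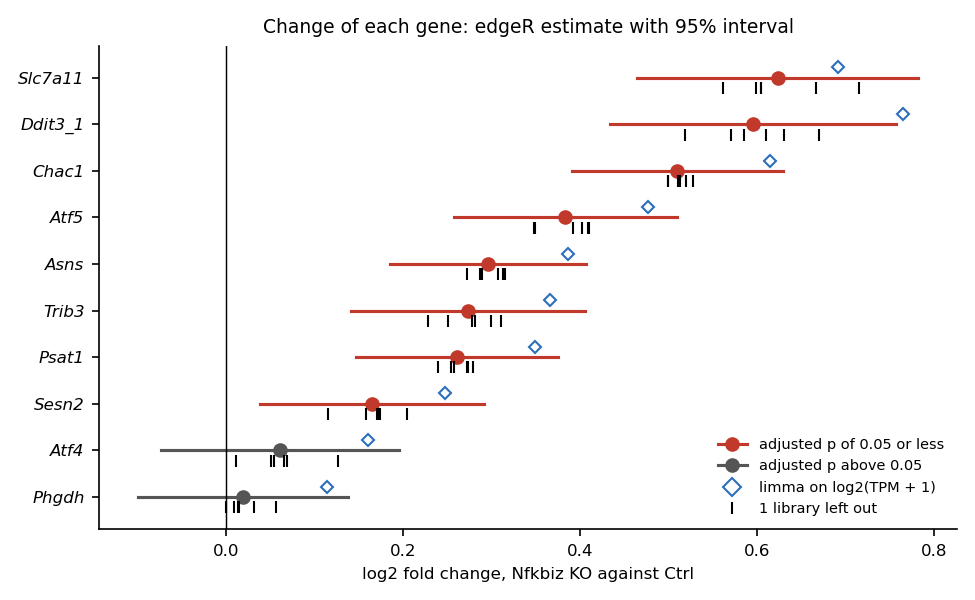
Log2 fold change of each gene in Nfkbiz KO against Ctrl from edgeR (circles, with 95% intervals), from limma on log2(TPM + 1) (diamonds) and from edgeR with 1 library left out at a time (ticks). Slc7a11, Ddit3_1 and Chac1 lie between 0.51 and 0.62, Sesn2 at 0.16, and the intervals of Atf4 and Phgdh include 0.

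By level, the mean TPM in Ctrl ran in the order Phgdh (502 ± 5.78, SD, n = 3), Atf4 (425 ± 25.7), Psat1 (354 ± 23.4), Asns (275 ± 14.6), Atf5 (205 ± 4.79), Trib3 (63.5 ± 4.73), Sesn2 (62.4 ± 3.39), Chac1 (62.2 ± 1.24), Ddit3_1 (53.8 ± 7.19) and Slc7a11 (16.5 ± 2.55). Trib3, Sesn2 and Chac1 were within their spread of each other, the top library of Ddit3_1 fell within the ranges of Trib3 and Sesn2, and the other neighbors did not overlap. In Nfkbiz KO the 5 most abundant genes kept this order, from Phgdh at 543 ± 11.3 TPM to Atf5 at 286 ± 12.8 TPM. Below them the order became Chac1 (95.8 ± 1.94), Ddit3_1 (91.8 ± 5.22), Trib3 (82.0 ± 5.18) and Sesn2 (74.3 ± 5.20), with each overlapping the next, and Slc7a11 (27.1 ± 1.30) stayed the lowest. Ctrl replicate 3 held the lowest TPM for 5 of the 9 genes and Nfkbiz KO replicate 2 the highest for 6 of the 9.

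Each gene was also set against Atf4 within its own library, as the log2 ratio of the TPM values, a measure chosen after the levels were seen. Of 9 ratios (Ddit3_1 included, Atf4 being the denominator), 6 were higher in every Nfkbiz KO library than in any Ctrl library, and 3 overlapped. Of the other 14418 genes tested, 15% had a ratio to Atf4 that was higher throughout and 27.3% a ratio that was lower throughout. Ddit3_1 gained 0.62 relative to Atf4, Slc7a11 0.57, Chac1 0.46, Atf5 0.32, Asns 0.23 and Psat1 0.19, and each reached p = 0.1 in the two-sided exact permutation test, the smallest possible. The ratios of Trib3 (0.21, exact p = 0.2), Sesn2 (0.09, exact p = 0.5) and Phgdh (−0.05, exact p = 0.3) overlapped between the groups. The ratios share Atf4 as denominator and are not independent of each other. The spread of the Ctrl ratios was wider than that of the Nfkbiz KO ratios for all 9 genes, for example an SD of 0.105 against 0.00793 for Chac1.

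**Figure D4:**
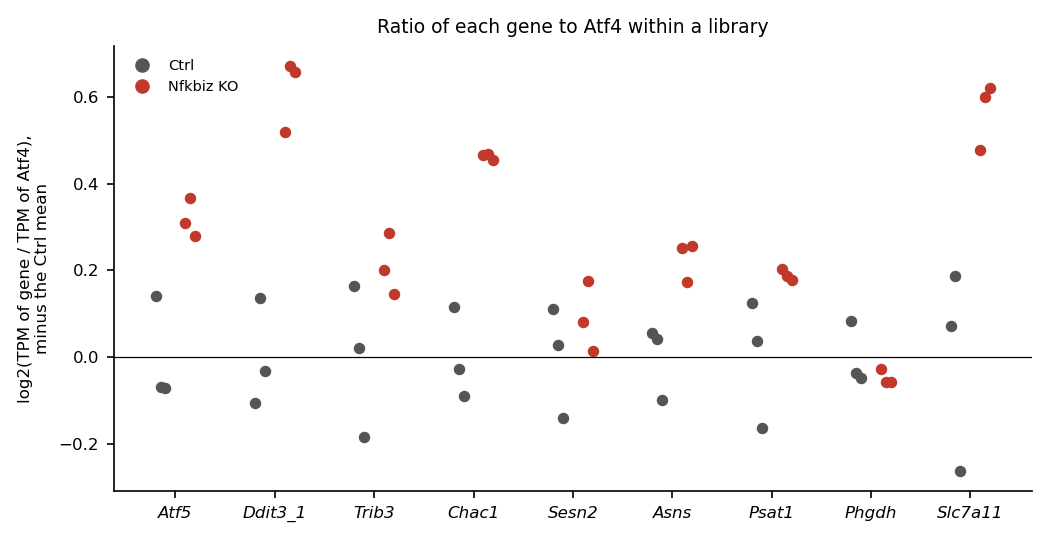
Log2 ratio of each gene's TPM to that of Atf4 in the same library, shown minus the Ctrl mean, for Ctrl (grey) and Nfkbiz KO (red). The Nfkbiz KO points of Ddit3_1, Slc7a11, Chac1, Atf5, Asns and Psat1 lie above all Ctrl points, and those of Trib3, Sesn2 and Phgdh overlap them.

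The wider pathway was read from 11 gene lists with 103 genes in all, of which 101 were tested. Of these, 49 were higher in Nfkbiz KO, 9 were lower and 43 did not pass (edgeR, adjusted p of 0.05), beside the 18.2% and 18.4% of all genes given above. The lists and the 9 genes were chosen with earlier results of these data known, so these shares are descriptive. The share of higher genes was 90% among metabolic enzymes, 87.5% among amino acid transporters and 76.9% among tRNA charging genes, and 33.3% among the kinases that start the response and their regulators.

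Upstream of Atf4, 2 of 6 kinase genes and GCN2 regulators were higher, 0 were lower and 4 did not pass (median log2 fold change 0.08). Eif2ak4, which encodes the amino acid sensor GCN2, had a log2 fold change of −0.06 (95% interval −0.21 to 0.08), Eif2ak1, the heme-regulated kinase, −0.05 (−0.17 to 0.06), and Eif2ak3, which encodes the endoplasmic reticulum kinase PERK, 0.13 (−0.07 to 0.32). None of the 3 passed. Eif2ak2, which encodes the double-stranded RNA kinase PKR, rose by 0.25 (SE 0.0811, adjusted p = 0.0289, edgeR). That call was lost with limma on both TPM scales and without Ctrl replicate 1 or any single Nfkbiz KO replicate (adjusted p up to 0.103), which left 1 of the 6 genes higher. The call that stayed was Impact, an inhibitor of GCN2 activation, which rose by 0.42 (SE 0.0632, adjusted p = 0.000236, edgeR). These are transcript levels and do not measure kinase activity.

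Of 10 genes for eIF2, its exchange factor eIF2B and the eIF2α phosphatase subunits, 2 were higher and 8 did not pass (median 0.11). Ppp1r15a (GADD34), the stress-induced phosphatase subunit that closes the feedback loop, rose by 0.21 (SE 0.0747, adjusted p = 0.0453, edgeR). It no longer passed with DESeq2, with the replicate block, or without Ctrl replicate 1, Ctrl replicate 3, Nfkbiz KO replicate 2 or Nfkbiz KO replicate 3 (adjusted p up to 0.198). The count of higher genes was 1 with DESeq2, with the block and without Ctrl replicate 1, Nfkbiz KO replicate 2 or Nfkbiz KO replicate 3, and 5 with limma on either TPM scale. Its constitutive counterpart Ppp1r15b had a log2 fold change of 0.11 (95% interval −0.02 to 0.23) and did not pass. The eIF2B subunit gene Eif2b3 rose by 0.24 (adjusted p = 0.00527, edgeR).

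Among 5 transcription partners of ATF4, 3 were higher and 1 lower. Cebpb, a bZIP partner that also acts in inflammatory transcription, fell from 326 ± 58.8 to 136 ± 16.6 TPM (SD, n = 3). Its log2 fold change of −1.37 (SE 0.136, edgeR) also met the study's thresholds. Jdp2 rose by 0.42, Atf3, an early stress factor, by 0.34 (adjusted p = 0.0168, edgeR, and 0.0611 without Nfkbiz KO replicate 1), and Cebpg, the dimer partner of ATF4 at amino acid response genes, by 0.21 (adjusted p = 0.00807, edgeR).

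Amino acid transporter genes other than Slc7a11 rose in 7 of 8 cases, with a median log2 fold change of 0.54, the highest of the 11 lists. Slc7a5, the large neutral amino acid carrier LAT1, rose from 184 ± 17.1 to 307 ± 9.60 TPM (log2 fold change 0.65, SE 0.0606). Slc7a1, the arginine and lysine carrier CAT1, rose by 0.62 and the glutamine carrier Slc1a5 by 0.58. The log2 fold change of 1.10 of Slc7a3 (SE 0.332) rests on 11 to 40 reads per library, and its call was lost with limma on log2(TPM + 0.1) and without Ctrl replicate 3 or any single Nfkbiz KO replicate (adjusted p up to 0.0834). Slc38a2 was the gene that did not pass, at 0.08.

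Enzymes of serine, folate, proline and transsulfuration metabolism were higher in 9 of 10 tested genes, with a median of 0.39, and Cbs was too low to test. Cth, which makes cysteine from cystathionine, rose from 45.9 ± 3.93 to 91.5 ± 0.779 TPM. The fitted difference was 0.91 on the log2 scale (SE 0.0547, adjusted p = 8.93e-08, edgeR), above that of each of the 9 genes. Aldh1l2, a mitochondrial folate enzyme, rose by 0.54, Got1, the cytosolic aspartate aminotransferase, by 0.44, and Pycr1, the last step of proline synthesis, by 0.42.

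Of 13 genes for tRNA charging (12 aminoacyl-tRNA synthetases and the tRNA exporter Xpot), 10 were higher and 3 did not pass, with a median of 0.21. Wars, for tryptophan, rose from 94.6 ± 4.72 to 155 ± 3.27 TPM (log2 fold change 0.60, SE 0.0566). Xpot rose by 0.34, Eprs by 0.34 and Lars by 0.29. Without Nfkbiz KO replicate 1, or without Nfkbiz KO replicate 2, 6 of the 13 passed.

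**Figure D5:**
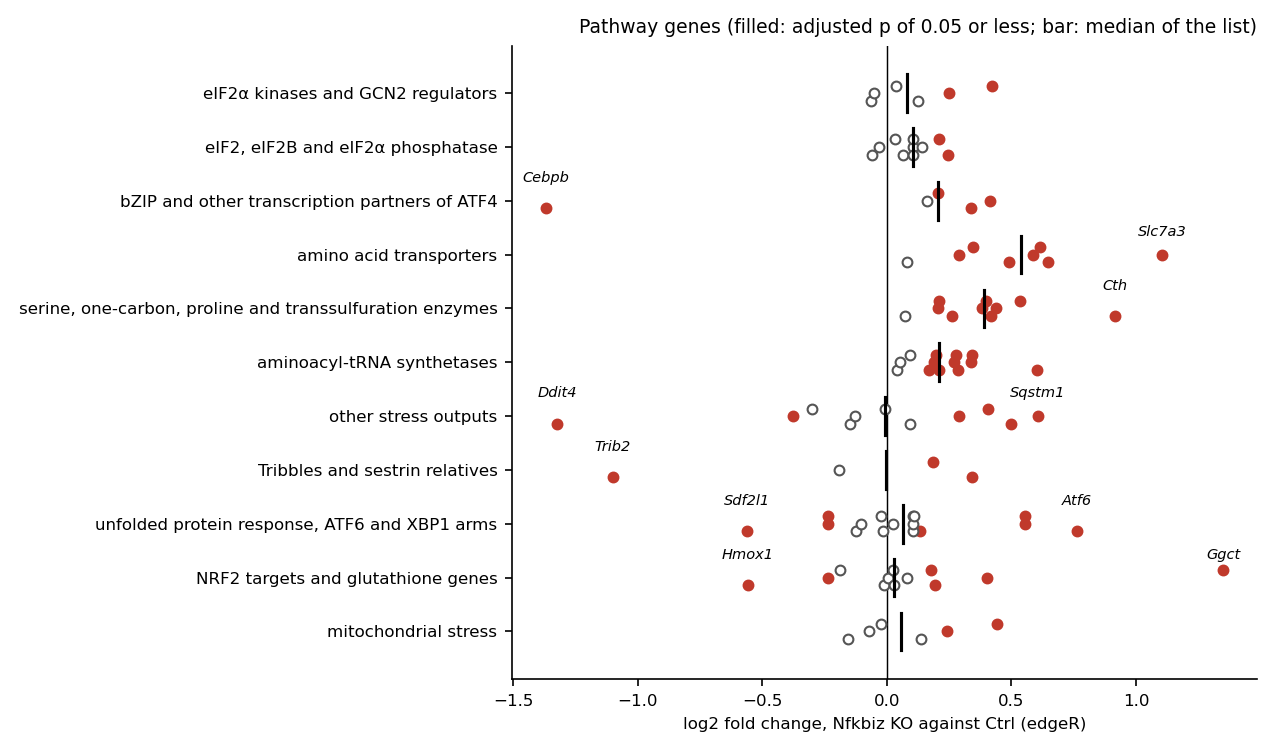
Log2 fold change of every tested gene of the 11 pathway lists in Nfkbiz KO against Ctrl (edgeR), filled where the adjusted p is 0.05 or less, with a bar at each list's median. Amino acid transporters (median 0.54) and serine, folate, proline and transsulfuration enzymes (0.39) lie to the right of 0, as do all 13 genes for tRNA charging, whereas the other 8 lists have genes on both sides, with Cebpb, Ddit4 and Trib2 furthest to the left.

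Other outputs of stress signaling did not move one way. Of 11 tested genes, 4 were higher, 2 lower and 5 did not pass (median −0.01), and Fgf21 was too low to test. Across the alternatives the count of higher genes ranged from 3 to 5, and that of lower genes stayed at 2. Ddit4 (REDD1), an mTORC1 inhibitor that also responds to hypoxia and glucocorticoids, fell from 206 ± 5.20 to 88.0 ± 7.07 TPM (log2 fold change −1.32, SE 0.0702). The autophagy receptor gene Sqstm1 rose from 424 ± 4.74 to 690 ± 21.6 TPM (0.61, SE 0.0562), Gdf15, a secreted stress cytokine, by 0.50 and the lipoprotein receptor gene Vldlr by 0.41. Within the families of Trib3 and Sesn2, Trib2 fell from 72.1 ± 5.26 to 35.7 ± 1.10 TPM (log2 fold change −1.10, SE 0.0573), Trib1 rose by 0.34, and Sesn1 did not pass. Sesn3 passed at 0.19 (adjusted p = 0.0459, edgeR) but not under 9 of 14 alternatives, among them DESeq2 and the removal of any library except Ctrl replicate 2. Ddit4 and Trib2 met the study's thresholds and stand in the same study gene list as Chac1, as does Ggct below.

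The neighboring stress pathways were mixed. Among 16 genes of the ATF6 and XBP1 arms of the unfolded protein response, 4 were higher, 3 lower and 9 did not pass (median 0.06). Across the alternatives these counts ranged from 3 to 6 higher and from 2 to 4 lower. Atf6 rose by 0.76 (SE 0.0732) and Ern1, which encodes IRE1α, by 0.55. Herpud1, a degradation factor of the endoplasmic reticulum that ATF4 also induces, rose by 0.55. The chaperone cofactor gene Sdf2l1 fell by 0.56, and Xbp1 fell by 0.24 (adjusted p = 0.00314, edgeR). Among 12 NRF2 targets and glutathione genes 4 were higher, 2 lower and 6 did not pass (median 0.03). Ggct, which acts on γ-glutamyl dipeptides, rose from 2.53 ± 0.258 to 6.90 ± 0.116 TPM (log2 fold change 1.35), Gclc, which starts glutathione synthesis, rose by 0.40, and Hmox1 fell by 0.56. Gpx4 fell by 0.24 (adjusted p = 0.0205, edgeR), a call lost with limma on both TPM scales and without any single Nfkbiz KO replicate (adjusted p up to 0.11). With those alternatives 1 gene of the list was lower, and without Nfkbiz KO replicate 2 only 2 were higher. Of 6 mitochondrial stress genes 2 were higher, the protease gene Oma1 by 0.44 and the chaperonin gene Hspd1 by 0.24, and 4 did not pass. Without Ctrl replicate 2, 1 of these 6 was lower.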

How the data were processed

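RNA of 3 Ctrl and 3 Nfkbiz KO samples of D4M-3A cells was sequenced as paired ends. Reads were mapped by the authors in CLC Genomics Workbench at default settings, without strand, and the authors deposited per gene the total and unique read counts, which are raw, and TPM and RPKM values based on exons. The deposited TPM values use a decimal comma, which was replaced by a point. The read counts also include reads outside exons. The study's methods name GRCm39, the submitters' processing notes GRCm38, and the tables hold no coordinates. Those given here come from GENCODE M39 on GRCm39, and promoter windows from a RefSeq table (GRCm38.p6) placed on GRCm39 by exact match, 1 place each.

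Total gene reads were tested with edgeR 4.0.16 in R 4.3.3 (TMM, filterByExpr defaults, quasi-likelihood test, Benjamini-Hochberg adjustment over 14419 genes). The filterByExpr defaults ask for about 10 reads in as many libraries as the smaller group holds, and for 15 in total. Tests were tried on simulated counts of 14245 genes. There, 81 of 100 genes changed by 1 and 99 of 100 changed by 2 on the log2 scale were recovered, and 12 unchanged genes were called. The simulation gave both groups the same spread and held no changes as small as those of the 9 genes (0.02 to 0.62). Recovery at that size was not measured. Alternatives were DESeq2 1.42.0, the likelihood-ratio test, RLE factors, no filter, unique reads, limma 3.58.1 on log2(TPM + 1) and log2(TPM + 0.1), a replicate block and each library left out.

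Genes named are the 10 chosen genes, Nfkbiz, the eIF2α kinases, Ppp1r15a and Ppp1r15b, defining markers and, of each list, up to 4 passing genes with the largest change. Slc38a2, Cbs, Fgf21, Sesn1, Xbp1 and Mars1 were named after their values were seen. The genes and lists were chosen with earlier results of these data known. All columns of the tables belong to these samples.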

Additional observations from a re-analysis of the deposited data

How the results depend on the processing

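Slc7a11, Chac1, Atf5, Asns, Trib3 and Psat1 kept their direction and their side of the threshold under all 14 alternatives, as did Ddit3_1. The count of higher genes among the 9 ranged from 6 to 8 with single libraries left out, was 8 with limma on either TPM scale and 6 with the replicate block. Sesn2 had 0.16 with the block, where it no longer passed (adjusted p = 0.062), and 0.115 to 0.205 with libraries left out. The deviations of same-numbered samples correlated at 0.0367, −0.0233 and 0.0256 over all genes tested. Such values do not show that replicate numbers mark pairs, and they cannot exclude it. The block moved all calls from 5274 to 5087. Phgdh passed with limma on log2(TPM + 1) at 0.11 and on log2(TPM + 0.1) at 0.11, and ranged from −0.000575 to 0.0559 with libraries left out, turning below 0 without Ctrl replicate 2. Atf4 ranged from 0.0115 to 0.126 with libraries left out. None of the 9 genes met the study's thresholds under any alternative. Counts of calls over all pathway lists ranged from 36 to 56 higher and 7 to 11 lower, and of 308 counts within single lists 31 moved by more than 1.5 times. The causes of these shifts were not tested. With 3 samples a group, no exact test of a single gene can pass 0.05.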
